A study of Oryza sativa with 15 samples.

Results

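CK plants are rice regenerants of the T0 generation that went through callus culture without receiving a transgene, and here they are described against the wild type, WYJ7. The description covers all 5122 regions of the deposited list of differentially methylated regions (DMRs) between CK and WYJ7, taken without further selection, of 11392 regions in the 3 deposited lists of the series. A region was called lower or higher in CK from the sign of the mean methylation level of the 3 CK libraries minus the mean of the 3 WYJ7 libraries, and not from the label the list carries. The list holds regions that were called on these same libraries, so a difference within a region is what put it there. The values below therefore describe the list and carry no test, and 3 libraries against 3 could not reach an exact permutation p below 0.1 for any single region.

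The series used shoots of *Oryza sativa* ssp. *japonica* cv. Wuyujing7 and measured DNA methylation by whole-genome bisulfite sequencing (WGBS), which tells methylated from unmethylated cytosines because bisulfite converts only cytosines without a methyl group. Each of 4 groups had 3 libraries, namely CK (T0 regenerants from independent calli), SDWT (T4 plants without the transgene, segregated from the transgenic line and labelled FP in the deposited data), *pOsNAR2.1-OsNAR2.1* (T4 plants with an added copy of *OsNAR2.1*, a partner protein of nitrate transporters, under its own promoter) and WYJ7. CK plants had been moved from root medium to water, whereas WYJ7, SDWT and *pOsNAR2.1-OsNAR2.1* seedlings were grown in water from seed, and DNA was taken from seedlings of 10 days. Culture, regeneration and growth on root medium cannot be told apart in the comparison of CK with WYJ7. The 3 CK libraries came from CK lines of separate calli. The paper also lists 3 WYJ7 lines, each with its own methylation count and plant traits. How these WYJ7 lines relate to each other is not stated. An SD over the WYJ7 libraries therefore measures the spread between these libraries, part of which may be technical.

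In plants, cytosines are methylated in the symmetric CG context, where maintenance methyltransferases of the MET1 type copy the mark after DNA replication, and in CHG and CHH contexts (H is A, C or T), which depend on chromomethylases and on RNA-directed DNA methylation. Heavy methylation in all contexts is typical of transposons and repeats, while many expressed genes carry CG methylation in their bodies only. Regeneration from callus is known as a source of heritable methylation changes in rice. The list names 2 classes of region, CpG and CpH, and CpH stands for the non-CG contexts together.

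CK was below WYJ7 in 3645 of the 5122 regions (71.2%) and above it in 1466 (28.6%). The means were equal in 11 regions, and 10 of these were listed at 0 in all 6 libraries. In the regions lower in CK, the mean level was 42.2% ± 5.05 in CK and 72.8% ± 0.321 in WYJ7 (SD, n = 3 libraries each). In the regions higher in CK it was 54.4% ± 2.82 in CK and 27.9% ± 0.318 in WYJ7. The median difference was -29.06 percentage points in the regions lower in CK and 25.48 points in those higher in CK. The regions were short, with a median width of 29 bp and a median of 4 cytosines, and the read depth behind a level is unknown. By the paper's counts, every CK library had fewer uniquely mapped reads than any WYJ7 library. The effect of this on levels and on their spread was not tested. Differences of mean levels were not all large. There were 1124 regions (21.9%) whose means differed by less than 20 points and 73 by less than 5 points, while 346 differed by 50 points or more.

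The libraries of a group did not spread equally. All 3 CK levels lay below all 3 WYJ7 levels in 2379 regions (46.4% of the list) and above them in 768 (15.0%), so that the groups did not overlap in 3147 regions (61.4%). Between libraries of WYJ7, the median absolute difference over the 5122 regions was 5.28 to 6.07 points. Between CK-1 and CK-3 it was 7.82 points, and CK-2 stood apart with 20.3 points from CK-1 and 20 points from CK-3. Within this list, CK-2 was also nearer to the wild type than the other CK libraries were. Its median distance from the WYJ7 libraries was 21.4 to 22.3 points, against 30.4 to 31.0 points for CK-1 and 30.2 to 30.8 points for CK-3. The same order was seen in the 193 regions with at least 10 cytosines, where CK-1 and CK-3 were 7.50 points apart and CK-2 was 10.8 and 13.1 points from them. The list was called on the difference between the CK and WYJ7 groups. With CK-1 and CK-3 alike, such a call favours regions where both differ from WYJ7. The nearness of CK-2 to the wild type therefore need not hold outside the list. In the paper's normalized counts of methylated cytosines over the genome, CK-3 lay nearest to WYJ7. Without CK-2, the share of regions lower in CK was 70.8%, and the levels of the other CK libraries did not overlap those of WYJ7 in 4302 regions. Results that rest on CK-2 are given below by library.

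In the regions lower in CK, the mean levels were 38.8% in CK-1, 48.0% in CK-2 and 39.7% in CK-3, against 72.5%, 73.0% and 73.0% in WYJ7-1, WYJ7-2 and WYJ7-3. CK-2 lay above the WYJ7 mean in 529 of these 3645 regions, CK-1 in 78 and CK-3 in 90. In the regions higher in CK, the mean levels were 55.4%, 51.3% and 56.7% in CK-1, CK-2 and CK-3, against 27.9%, 27.5% and 28.2% in the WYJ7 libraries. These sets were formed by the sign of the mean of the same 3 CK libraries minus WYJ7. That the means over regions lay on the same side of the wild type follows largely from this sorting. Single regions often differed between the CK libraries.

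The level of a region in the wild type went with the direction of its difference in CK. Of the 840 regions with a mean WYJ7 level under 20%, 16.2% were lower in CK, of the 2301 regions between 20% and 80% the share was 67.4%, and of the 1981 regions at 80% or more it was 98.9%. A region near 0% can only gain and a region near 100% can only lose, and the WYJ7 level is itself a term of the difference. When the class was set from WYJ7-1 and WYJ7-2 and the difference was taken from WYJ7-3, the shares were 17.1%, 67.4% and 97.3%. WYJ7-3 also took part in calling the regions, and the limits at 0% and 100% remain. These shares therefore do not remove either restriction. Between these ends, where either direction was open, losses were more frequent than gains. In bins of 10 points from 20% to 70% the share lower in CK lay between 56.0% and 68.8%. The bin from 40% to 50% held 204 regions lower in CK and 141 higher.

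**Figure D1:**
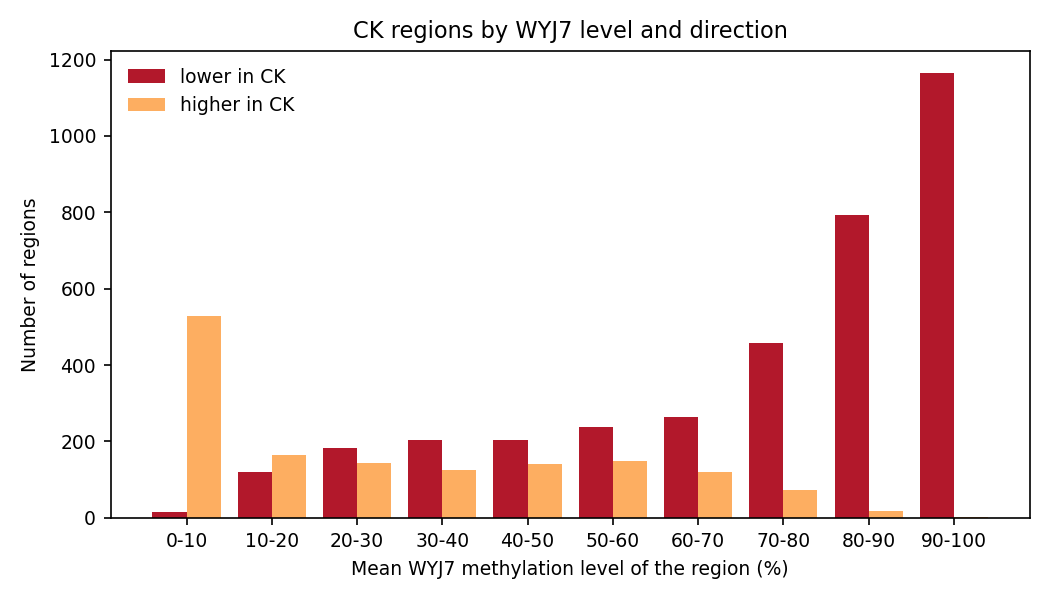
Number of regions (vertical axis) lower or higher in CK, in bins of 10 percentage points of the mean WYJ7 methylation level (horizontal axis). The bin of 90% to 100% holds 1165 regions lower in CK and 3 higher, and the bin of 0% to 10% holds 16 lower and 529 higher.

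Regions that were highly methylated in the wild type were mostly not empty in CK. In the 1981 regions with a WYJ7 mean of 80% or more, the median level was 57.2% in CK-1, 75% in CK-2 and 58.6% in CK-3, against 92.2%, 92.0% and 92.1% in WYJ7-1, WYJ7-2 and WYJ7-3. Intermediate levels of 40% to 60% made up 34.3% of the values of CK-1, 17.8% of CK-2 and 32.9% of CK-3, against 0.101%, 0.101% and 0.0505% in WYJ7-1, WYJ7-2 and WYJ7-3. The class requires a high WYJ7 mean, which keeps the WYJ7 shares low. Intermediate levels were not particular to CK. In the same class of the SDWT list (429 regions) they made up 27.3%, 30.3% and 28.9% of the values of the SDWT libraries. In that of the *pOsNAR2.1-OsNAR2.1* list (288 regions) the shares were 25.3%, 24.7% and 29.5%. A level of exactly 0 was listed in 67, 78 and 56 of the 1981 regions in CK-1, CK-2 and CK-3, and in none of the WYJ7 libraries, whose mean the class requires to be high. All 3 CK libraries were under 20% in 7 regions. Intermediate levels were also seen in regions with more cytosines. In the 38 regions of this class with at least 10 cytosines, the medians were 56.5%, 72.6% and 54.2% in CK-1, CK-2 and CK-3, against 90.1%, 90.6% and 90.2% in WYJ7-1, WYJ7-2 and WYJ7-3.

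Within the list, CK-2 differed from the other CK libraries by its share of regions at the wild-type level. A library was counted as moved where its level was 20 points or more away from the WYJ7 mean, on the side given by the region's direction, and all 3 CK libraries had moved in 1594 regions of the list (31.1%), 1193 lower (23.3%) and 401 higher (7.83%). Over the list, CK-1 and CK-3 had moved without CK-2 in 1208 regions lower (23.6%) and 411 higher (8.02%), and CK-2 alone in 285 regions lower (5.56%) and 187 higher (3.65%). In 823 of the 1959 regions lower in CK among those at 80% or more in WYJ7 (42.0%), CK-1 and CK-3 were each at least 20 points under the WYJ7 mean and CK-2 was not. The medians of these 823 regions were 49.7% in CK-1, 89.5% in CK-2 and 50% in CK-3, against 92.8%, 92.7% and 92.7% in the WYJ7 libraries. The reverse, a drop of at least 20 points in CK-2 alone, was found in 186 regions (9.49%). Where all 3 libraries dropped by at least 20 points (464 regions, 23.7%), the medians were 49.7%, 50.7% and 50% in CK-1, CK-2 and CK-3, against 90.9% in each WYJ7 library. Where all 3 had moved, the median of CK-2 lay within 1 point of those of CK-1 and CK-3. The sets of 823 and 464 regions were chosen by whether CK-2 had dropped by 20 points. The CK-2 medians in them therefore follow largely from that choice.

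**Figure D2:**
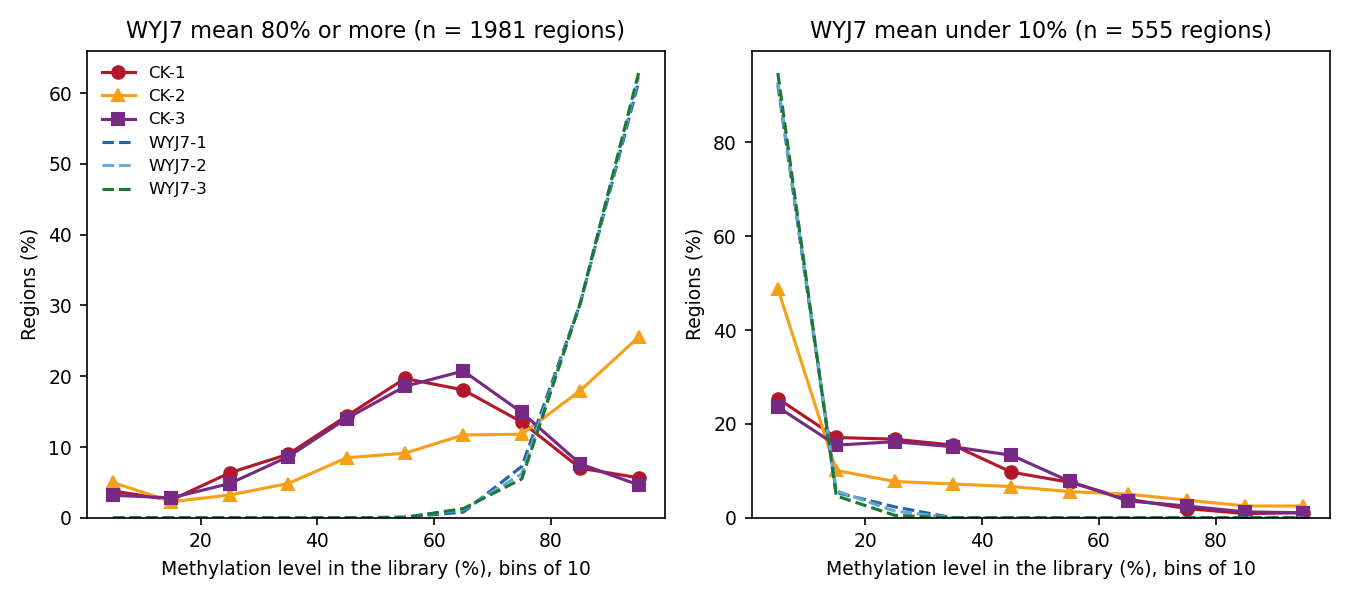
Share of regions (vertical axis, %) by methylation level in each library (horizontal axis, %, bins of 10 points), for the 1981 regions with a WYJ7 mean of 80% or more (left) and the 555 regions under 10% (right). Solid lines are the CK libraries and dashed lines the WYJ7 libraries. On the left CK-1 and CK-3 have their bulk at intermediate levels, while CK-2 has its highest share at 90% to 100%.

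At the other end, 555 regions had a WYJ7 mean under 10%, and 529 of them were higher in CK. Their median level was 24.6% in CK-1, 10.7% in CK-2 and 26.7% in CK-3, and 0 in each WYJ7 library. CK levels of 50% or more were found in 86, 108 and 90 of the 555 regions in CK-1, CK-2 and CK-3, and in no WYJ7 library. In 373 regions all 3 WYJ7 libraries were listed at 0, and 363 of these were higher in CK. CK-2 was also at 0 in 198 of the 373, CK-1 in 94 and CK-3 in 80. A gain of at least 20 points in all 3 CK libraries was found in 25 of the 363 regions (6.89%), and in CK-1 and CK-3 without CK-2 in 133 (36.6%). Gains of this size at unmethylated regions were therefore seldom shared by all 3 libraries. Counting a gain of any size, all 3 CK levels lay above 0 in 97 of the 363 regions (26.7%). Over all regions higher in CK, the groups did not overlap in 52.4%. In the regions of 20% to 80% in WYJ7, by comparison, all 3 CK libraries had moved by 20 points in 729 of 1550 regions lower in CK (47.0%) and in 274 of 751 higher (36.5%).

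The list annotates each region to at most 1 gene, as upstream of it, in an exon or in an intron, and the upstream intervals it gives are up to 2002 bp long. There were 2139 upstream regions, 439 intron regions and 269 exon regions, and 2275 regions (44.4%) had no gene annotation. In the CpG class, which held 4962 regions, the share lower in CK was 74.9% of 251 exon regions, 72.9% of 428 intron regions, 68.6% of 2094 upstream regions and 73.5% of 2189 regions without a gene. Library by library the shares spread by 3.44 to 6.68 points (SD, n = 3 CK libraries, each set against the WYJ7 mean). Features also differed in their wild-type levels. A WYJ7 mean of 80% or more was found in 49.4% of exon CpG regions, 38.3% of intron, 34.6% of upstream and 43.9% of unannotated ones. Within the class of 80% or more, 122 of 124 exon, 164 of 164 intron, 716 of 725 upstream and 951 of 962 unannotated CpG regions were lower in CK.

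The CpH class was small, with 160 regions (3.12%), and started from lower levels. In the 98 CpH regions lower in CK, the mean level was 13.9% ± 3.23 in CK and 42.1% ± 0.884 in WYJ7 (SD, n = 3 each). In the 61 regions higher in CK it was 34.4% ± 4.07 in CK and 12.1% ± 2.98 in WYJ7. The shares of both directions differed with the location of a CpH region, on small numbers. Of 86 CpH regions without a gene annotation, 75.6% were lower in CK, and of 45 upstream regions 57.8%. Of 18 CpH regions in exons, 4 were lower in CK and 14 higher, and of 11 in introns 3 were lower and 8 higher. The higher CpH regions of exons had small differences, with a mean level of 18.7% ± 1.93 in CK and 6.51% ± 2.19 in WYJ7. The groups did not overlap in 3 of these 14 regions (21.4%), against 44.3% of all CpH regions higher in CK. Only 7 of the exon and intron CpH regions differed by at least 20 points, and 42.9% of these were lower in CK. At 30 points or more there was 1 such region, which was higher.

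**Figure D3:**
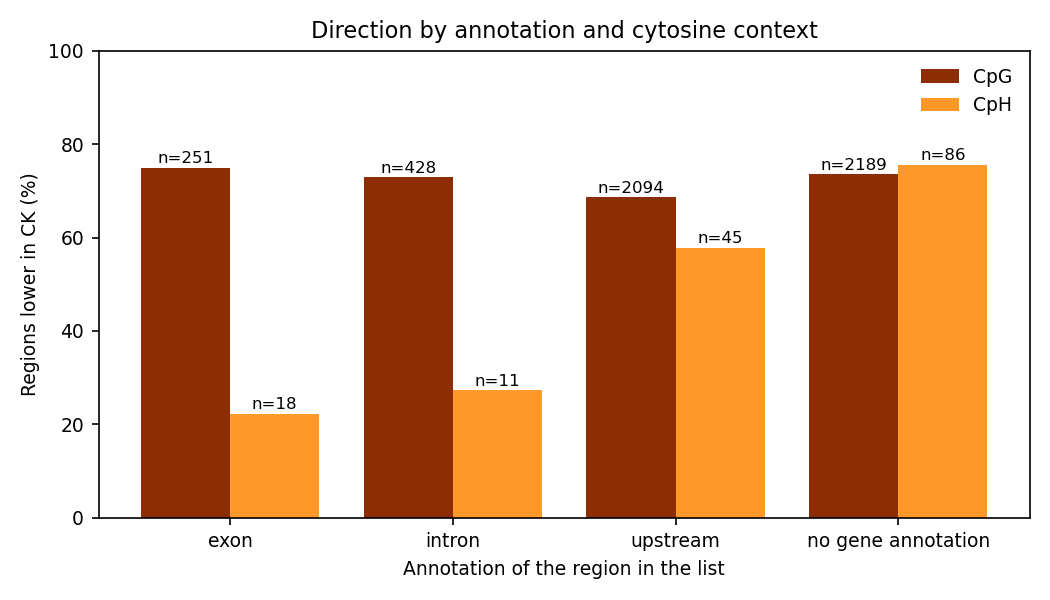
Share of regions lower in CK (vertical axis, %) by the annotation of the region (horizontal axis) and by context, CpG beside CpH, with the number of regions above each bar. CpG bars lie between 68.6% and 74.9%, and the CpH bars of exons and introns, which rest on 18 and 11 regions, lie at 22.2% and 27.3%.

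Among CpH regions, the difference was largest between 13088184 and 13088200 on chromosome 6 (IRGSP-1.0 coordinates here and below), a stretch without a gene annotation. Its levels were 0, 0 and 20% in CK-1, CK-2 and CK-3, against 82.3%, 79.7% and 73.1% in WYJ7-1, WYJ7-2 and WYJ7-3. A second CpH region, on chromosome 7 from 26405081 to 26405117, was listed at 0 in all CK libraries, against 51.2%, 64.8% and 71.4% in the WYJ7 libraries. In the opposite direction, an upstream CpH region on chromosome 3 from 32679261 to 32679293 had 59.8%, 59.2% and 58.7% in CK, against 17.7%, 0 and 0 in WYJ7. Its 3 CK values lay within 1.10 points of each other. An unannotated CpH region on chromosome 11 from 4505899 to 4505926 had 89.8%, 93.7% and 92.6% in CK, against 56.8%, 21.2% and 40.7% in WYJ7. In each of these 4 regions the groups did not overlap, as in 67.5% of all CpH regions.

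Large CpG differences in gene bodies were examined in regions with at least 5 cytosines and groups that did not overlap. In exons, the largest loss was on chromosome 2 from 22723803 to 22723816, with 4.32%, 4.58% and 0 in CK-1, CK-2 and CK-3, against 95.3%, 87.9% and 85.5% in WYJ7-1, WYJ7-2 and WYJ7-3. It was one of the 7 regions at 80% or more in WYJ7 with all CK libraries under 20%. An exon region on chromosome 8 from 2773980 to 2774025 had 7.69%, 22.0% and 0 in CK, against 53.1%, 72.5% and 61.8% in WYJ7. On chromosome 3 from 10856830 to 10856900, the exon levels were 30.7%, 78.5% and 28.7% in CK, against 89.8%, 89.3% and 94.2% in WYJ7, so that CK-2 was close to the wild type there. Under this rule, exon gains were smaller than exon losses. Over all exon CpG regions that differed by at least 40 points, 70.2% were lower in CK and the rest were gains of that size. The largest gain under the rule was in the gene OS01G0575901, on chromosome 1 from 22195692 to 22195721, with 96.6%, 90.9% and 94.8% in CK, against 64.2%, 54.0% and 77.3% in WYJ7. The same gene held a further exon region, from 22190146 to 22190176 with 4 cytosines, where CK had 97.0%, 66.7% and 100%, against 0, 25% and 0 in WYJ7. The other exon gains under the same rule were 28.9 points on chromosome 1 from 8721073 to 8721098 and 28.8 points on chromosome 6 from 2478386 to 2478414, with SDs among CK libraries of 0.428 and 1.00 points.

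In introns, the largest loss was on chromosome 1 from 8487696 to 8487726, with 35.7%, 31.7% and 18.3% in CK-1, CK-2 and CK-3, against 83.2%, 75.4% and 82.2% in WYJ7-1, WYJ7-2 and WYJ7-3. An intron region on chromosome 7 from 8784864 to 8784917 had 0, 0 and 19.2% in CK, against 58.2%, 53.7% and 44.6% in WYJ7. The third, on chromosome 3 from 14781065 to 14781124, had 20.4%, 61.9% and 47.7% in CK, against 91.5%, 89.9% and 88.1% in WYJ7. Intron gains included a region that was unmethylated in the wild type. On chromosome 6 from 4147079 to 4147112, CK had 73.7%, 25.1% and 55.0%, and all WYJ7 libraries were listed at 0. On chromosome 1 from 17297286 to 17297345, CK had 92.2%, 96.9% and 96.4%, against 62.1%, 60.5% and 26.7% in WYJ7. On chromosome 2 from 15318588 to 15318686, CK had 91.1%, 67.7% and 92.4%, against 44.0%, 54.4% and 46.6% in WYJ7. CK was nearly uniform in the chromosome 1 region, where WYJ7 itself varied by 35.4 points.

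Upstream of genes, the regions with the largest losses had CK libraries far from each other. On chromosome 2 from 33178971 to 33179011, the levels were 0, 70.7% and 0 in CK-1, CK-2 and CK-3, against 87.5%, 94.8% and 95.4% in WYJ7-1, WYJ7-2 and WYJ7-3. On chromosome 12 from 18300543 to 18300625 they were 0, 40.7% and 8.57% in CK, against 83.3%, 81.5% and 88.4% in WYJ7. On chromosome 2 from 18800823 to 18800864 it was CK-2 that was listed at 0, with 60.3% in CK-1 and 34.4% in CK-3, against 96.0%, 93.0% and 98.0% in WYJ7. Upstream gains were seen on chromosome 5 from 2232262 to 2232275, where CK had 79.7%, 35.8% and 85.4%, against 7.74%, 21.5% and 6.96% in WYJ7. On chromosome 2 from 35056321 to 35056357, CK had 59.2%, 33.2% and 63.2%, against 0, 7.06% and 0 in WYJ7. Outside genes, chromosome 10 from 2575288 to 2575319 was listed at 0 in all CK libraries, against 59.5%, 69.2% and 65.3% in WYJ7. This unannotated region was picked after its values were seen, since the rule for the others covered annotated regions.

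Single CK libraries had switched where the others kept the wild-type level. A switch was counted where 1 library lay at least 50 points from the WYJ7 mean and the other CK libraries lay within 10 points of it. CK-2 had 108 such regions (2.11% of the list), 52 lower and 56 higher, whereas CK-1 had 7 (0.137%) and CK-3 had 6 (0.117%). A move of at least 50 points in all 3 CK libraries was found in 73 regions lower (1.43% of the list) and 18 higher in CK (0.351%). Of the 108 regions of CK-2, 25 had at least 5 cytosines. In the lists of SDWT and *pOsNAR2.1-OsNAR2.1*, which share the WYJ7 libraries, a single library held at most 6 (0.220%) and 4 (0.113%) such regions. These shares were near those of CK-1 and CK-3, so only CK-2 stood out. The SDWT and *pOsNAR2.1-OsNAR2.1* libraries each trace to a single T1 line, while the CK libraries came from independent calli. The effect of this difference in origin was not tested.

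The 5 regions with the largest range among CK libraries, of those with at least 5 cytosines, were mostly of this kind. On chromosome 4 from 13175245 to 13175275, upstream of a gene, CK-2 was listed at 0, and CK-1 and CK-3 had 97.8% and 99.2%, against 96.8%, 96.4% and 99.6% in WYJ7-1, WYJ7-2 and WYJ7-3. On chromosome 6 from 12675220 to 12675238, also upstream, CK-2 was at 0, and CK-1 and CK-3 had 92.2% and 98.2%, against 94.5%, 95.5% and 88.8% in WYJ7. On chromosome 1 from 5599730 to 5599818, without a gene, the levels were 90.2%, 2.42% and 98.6% in CK-1, CK-2 and CK-3, against 92.8%, 95.2% and 95.8% in WYJ7. In these regions a fully methylated wild-type stretch was empty in CK-2 alone. On chromosome 5 from 14544015 to 14544044, upstream, the CK libraries had 3 different states, 44.1%, 100% and 0, against 100%, 97.0% and 100% in WYJ7. On chromosome 7 from 20199533 to 20199570 the CK levels were 97.4%, 0 and 92.9%, but here WYJ7 varied as well, with 0, 66.1% and 37.0%.

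**Figure D4:**
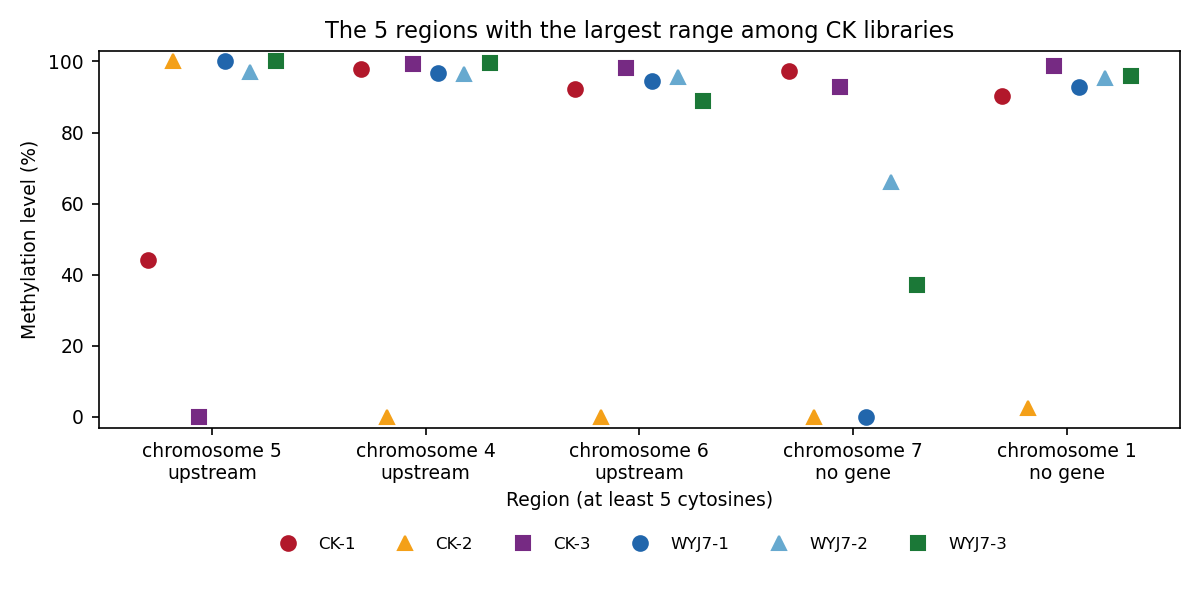
Methylation level (vertical axis, %) in each of the 3 CK and 3 WYJ7 libraries, 1 point per library, for the 5 regions with at least 5 cytosines and the largest range among CK libraries (horizontal axis, by chromosome and annotation). In 4 of the regions CK-2 is at 0 to 2.42% while CK-1 and CK-3 lie above 90%.

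The regions were spread over 2709 gene identifiers. The list gives no description for any of them, and 0 of the 2709 matched the reference table used here, so no gene names or roles are given and only few identifiers are printed. Of the 2709 genes, 2584 had 1 region, 125 had 2 or more and 10 had 3 or more. In the 125 genes with several regions, these were all lower in CK in 83 genes, all higher in 18 and of both directions in 24. OS12G0524750, on chromosome 12, had the most, with 4 upstream regions and 1 exon region between 20547358 and 20548541. Its exon region had 29.4%, 19.9% and 38.4% in CK-1, CK-2 and CK-3, against 53.1%, 62.5% and 55.1% in WYJ7-1, WYJ7-2 and WYJ7-3, and the CK and WYJ7 levels did not overlap in any of the 5 regions. Its nearest upstream region by position, from 20547873 to 20548037, had 19.4%, 31.6% and 14.6% in CK, against 49.5%, 48.5% and 54.1% in WYJ7. WYJ7-3 was far below the other WYJ7 libraries in the upstream regions farther off, with 15.1% against 48.3% in WYJ7-1 and 54.1% in WYJ7-2 in the region from 20547505 to 20547546, where CK had 6.05%, 4.09% and 8.89%.

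OS01G0539400, on chromosome 1, had 3 upstream regions, all lower in CK, between 19822391 and 19822567. In the middle one, from 19822478 to 19822523, the levels were 54.1%, 12.2% and 31.1% in CK-1, CK-2 and CK-3, against 78.6%, 86.4% and 83.7% in WYJ7-1, WYJ7-2 and WYJ7-3. In the last, from 19822560 to 19822567, they were 29.7%, 0 and 0 in CK, against 62.8%, 77.1% and 72.9% in WYJ7. In the first, from 19822391 to 19822413, CK-1 had 62.6%, the same value as WYJ7-1, so the groups overlapped there. CK-2 was thus the lowest CK library, or level with the lowest, in all 3 regions of this gene. The 1 gene of the 10 with all regions higher in CK was EPlOSAG00000033768, on chromosome 2, with 3 upstream regions. Its region from 24107126 to 24107144 had 77.6%, 97.5% and 74.4% in CK, against 70.6%, 47.1% and 55.3% in WYJ7. Its region from 24107191 to 24107231 had 47.5%, 0 and 55.1% in CK and was listed at 0 in all WYJ7 libraries.

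Of the other 7 genes, 5 had all 3 regions lower in CK and 2 had regions of both directions. One of the mixed genes lay on chromosome 2, with 4 upstream regions. CK had 61.4%, 100% and 71.4% in the region from 21882635 to 21882669, against 63.0%, 0 and 32.9% in WYJ7. Less than 1 kb away, from 21883473 to 21883579, CK had 30.1%, 55.3% and 34.9%, against 77.3%, 67.4% and 76.8% in WYJ7. The means of upstream regions of 1 gene thus differed in opposite directions. In the higher one the groups overlapped, and WYJ7 itself ranged from 0 to 63.0%. Over the list, 230 pairs of neighbouring regions lay within 1 kb of each other, and 185 of these pairs (80.4%) had the same direction. At up to 10 kb the share was 67.4% of 922 pairs, and at up to 0.1 kb it was 91.8% of 73 pairs. Without the 2 densest windows of 100 kb, described below, it was 78.6% at 1 kb, 66.0% at 10 kb and 90.5% at 0.1 kb. Since 71.2% of the list was lower in CK, unrelated pairs would also often share a direction, and no baseline was run.

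On the chromosomes, the share of regions lower in CK lay between 65.0% on chromosome 10 and 75.6% on chromosome 12. In windows of 100 kb, the median number of regions in the 2612 windows that held any was 2, and 2 adjacent windows of chromosome 12, between 20500001 and 20700000, held 28 and 16. No other window held more than 8. This stretch was singled out after the values were seen. All of its 44 regions were lower in CK and of the CpG class, and CK and WYJ7 levels did not overlap in 41 of them (93.2%). Over the list the levels did not overlap in 61.4% of regions, and in 65.3% of those lower in CK. The regions of the stretch were long, with a median of 145.5 bp and 12.5 cytosines, and included 27 of the 193 regions of the list with at least 10 cytosines.

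CK-2 did not stand apart in the chromosome 12 stretch. Averaged over the 44 regions, the levels were 14.2%, 16.3% and 17.5% in CK-1, CK-2 and CK-3, against 42.2%, 47.2% and 38.0% in WYJ7-1, WYJ7-2 and WYJ7-3, which gave means of 16.0% ± 1.69 in CK and 42.5% ± 4.61 in WYJ7 (SD, n = 3 each). The widest region of the whole list, 873 bp with 81 cytosines upstream of a gene, was the first of the stretch, from 20504042 to 20504914. Its levels were 10.7%, 8.74% and 11.3% in CK, against 28.0%, 38.4% and 35.8% in WYJ7. The stretch covered 27 upstream regions, 1 exon region, 1 intron region and 15 regions without a gene, and 3 of the 10 genes with at least 3 regions lay in it. The median difference was -25.64 points, and the range was from -9.07 to -41.82 points. The region of the largest difference, upstream of a gene from 20539137 to 20539222, had 1.87%, 18.5% and 0 in CK, against 52.9%, 42.4% and 50.5% in WYJ7.

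In the same 200 kb, the list of SDWT held 1 region and that of *pOsNAR2.1-OsNAR2.1* held 18, all lower than WYJ7. These lists were called against the same WYJ7 libraries and are therefore not independent of the CK list. The 18 regions averaged 16.6%, 21.6% and 18.1% in *pOsNAR2.1-OsNAR2.1*, against 47.3%, 52.2% and 42.8% in WYJ7. The 1 SDWT region had 8.84%, 13.3% and 14.6% in SDWT, against 31.6%, 44.2% and 46.8% in WYJ7. The stretch was 0.859% of the CK list, 0.0366% of the SDWT list and 0.509% of the *pOsNAR2.1-OsNAR2.1* list. Without it, 70.9% of the CK regions were lower in CK.

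**Figure D5:**
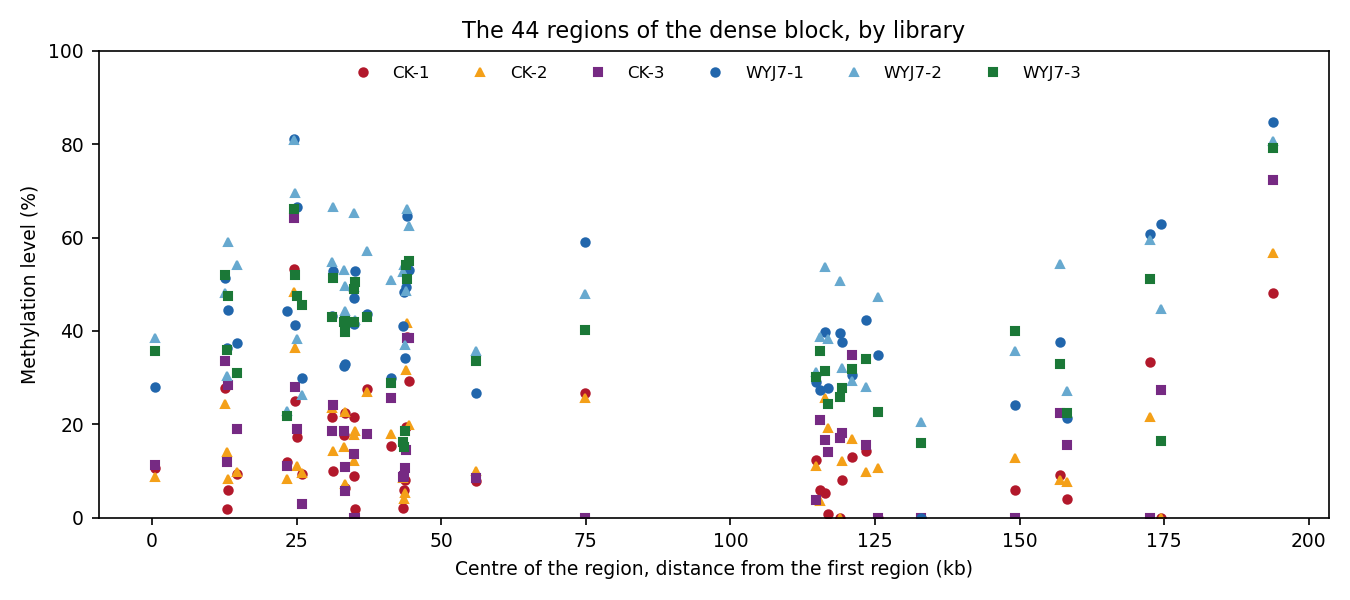
Methylation level (vertical axis, %) of the 44 regions in the chromosome 12 stretch, 1 point per library, by the distance of the region's centre from the start of the first region (horizontal axis, kb). CK points lie below the WYJ7 points in 41 of the 44 regions, and the CK libraries average between 14.2% and 17.5%.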

How the data were processed

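For each library the authors aligned reads with Bismark 0.9.0 against IRGSP-1.0 and kept uniquely mapped reads. They called regions with methylKit and eDMR. The paper gives the removal of cytosines with a depth under 5 for its coverage calculation. It does not say whether the regions had the same filter. The levels are deposited in percent, as the mean over the cytosines of a region, without normalization between libraries. Region width and number of cytosines were used as the authors deposited them. The deposited differences, p-values, q-values, numbers of differentially methylated cytosines and direction labels hold the results of the authors' own comparison and were not used. Regions that were not called, and the read depth per region, were not analysed here, so no counting error can be given.

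Means, SDs, differences and counts were calculated with Python 3.11.15, numpy 2.4.6 and pandas 2.3.3 and drawn with matplotlib 3.10.9, after the functions had been checked on simulated data. Groups did not overlap where all 3 CK levels lay on one side of all 3 WYJ7 levels. The members, rules and lists were chosen with earlier results of these data known. Named were the 10 genes with most regions (not all by identifier), the 3 largest differences per annotation and direction with at least 5 cytosines and no overlap, the 5 largest CK ranges and 2 CpH regions per direction. The OS01G0575901 region with 4 cytosines, the unannotated chromosome 10 region and the chromosome 12 stretch were added after their values were seen. Gene lists were not used, since no identifier matched a name, and sequences were not used, since no genome of this build was given. The MeDIP samples of the series were not analysed here.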

Additional observations from a re-analysis of the deposited data

How the results depend on the processing

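No paired analysis was possible because the results come from no test, and CK and WYJ7 plants share only a replicate number. Of 214 values recomputed under 16 settings for 15 results, 167 stayed within the spread between CK libraries (or, for counts, within 1.5 times), 46 did not and 1 changed its majority. With at least 10 cytosines, 42.9% of the CpH regions were lower in CK, so most were higher, against 61.3% of all CpH regions, and that share was 52.0% with at least 5 cytosines. When 1 library at a time was left out, the share lower in CK lay between 70.8% and 71.3%, the regions without overlap between 3319 and 4302, the CpH share between 60.6% and 62.5%, and the share under 20% in WYJ7 between 16.2% and 18.5%, the highest without CK-2.

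With at least 5 cytosines, 935 regions were without overlap, 63.5% of intron CpG and 70.0% of unannotated CpH regions were lower, 10.8% of those under 20% in WYJ7 were lower, and 3 genes had at least 3 regions. With at least 10 cytosines, the shares lower in CK were 65.8% for all regions, 85.7% for exon CpG (7 regions) and 75.7% for upstream CpG (70 regions). They were 8.33% for exon and intron CpH (7 exon and 5 intron regions) and 68.0% for unannotated CpH (25 regions). By WYJ7 level they were 5.71% under 20% (35 regions) and 72.5% at 20% to 80% (120 regions). There were 157 regions without overlap, and 1 gene had at least 3 regions.

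At 30 points or more, 77.2% of regions, 78.2% of intron, 75.9% of upstream and 78.6% of unannotated CpG regions, 71.2% of CpH, 0% of exon and intron CpH (1 region), 0% under 20% and 74.2% at 20% to 80% in WYJ7 were lower, 1720 regions were without overlap, the median differences were -38.87 and 36.99 points, and 3 genes were left. At 40 points or more the same values were 80.6%, 82.3%, 81.2%, 81.4%, 71.4%, 0%, 0% and 79.7%, with 797 regions, -47.06 and 46.82 points, and 2 genes. At 20 points or more, a setting chosen after seeing the data, 69.9% of CpH, 42.9% of exon and intron CpH, 0% under 20% and 70.1% at 20% to 80% in WYJ7 were lower. Merging neighbours within 100 bp left 5 genes with at least 3 regions. A region under 20% in WYJ7 cannot fall by 20 points or more. Its share of 0% at the cut-offs of 20, 30 and 40 points was therefore fixed in advance. Why the remaining values moved was not tested. A coverage minimum and a reference annotation were not run, since the list gives no coverage and no annotation of this build was given.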
